A study of Mus musculus with 12 samples.

Results

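The enzymes that make serine, proline and the one-carbon units carried by folate were examined in RNA-seq of mouse cell lines after knockdown of the M5 muscarinic receptor. They are 10 genes, chosen by their known enzymatic role and found in the expression table by gene symbol, and all 10 of 10 were among its 17995 genes. The authors describe C18-4 as a line of mouse spermatogonial stem cells and TM4 as a line of mouse Sertoli cells. Each line received either shM5, a mixture of 3 short hairpin RNAs against the M5 gene Chrm5, or shNC, a negative control hairpin, carried by the same lentiviral vector and delivered with RNAi-mate. Each of the 4 groups had 3 libraries, 12 in all. All 12 libraries carry the strain label IRC, and the labels give no time after transfection. The lines were kept in different media, DMEM for TM4 and DMEM/F12 with added glutamine for C18-4, so cell line and medium cannot be told apart. Values are RPKM, reads scaled for gene length and for the reads of the library, which allow levels of different genes to be set side by side.

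Serine is made from a glycolytic intermediate by the successive action of Phgdh, Psat1 and Psph. Serine hydroxymethyltransferases then split serine into glycine and a one-carbon unit bound to folate, Shmt1 mainly in the cytosol and Shmt2 in mitochondria, and the mitochondrial enzymes Mthfd2, Mthfd1l and Aldh1l2 oxidise that unit to formate or carbon dioxide for nucleotide synthesis and NADPH. Proline is made from glutamate by Aldh18a1 and Pycr1 in mitochondria. Many of these genes are known targets of the transcription factor ATF4, which cells use when amino acids run short, and in the testis Sertoli cells supply the germ cells with metabolites.

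The target Chrm5 was listed at 0.01 RPKM in TM4 shNC replicate 1 and in C18-4 shNC replicate 2 and at 0 in the other 10 libraries, so these values do not check the knockdown. The TM4 library labelled shNC replicate 3 resembled shM5 more than its own group. The files do not show whether its label is right, and every TM4 shNC mean, fold change and line difference with all libraries holds it under that label. Its root mean square log2 difference was 0.202 to 0.257 to the 3 shM5 libraries and 0.64 and 0.642 to shNC replicates 1 and 2. In C18-4 cells replicate 3 of both groups stood apart, with 0.418 and 0.438 to the other shNC libraries and 0.376 and 0.388 to the other shM5 libraries. Replicates 1 and 2 of each group differed by 0.189 to 0.201. The value of 1 read was taken from the steps between the low values of 12 genes, of which 3 to 9 entered per library. It was 0.946 to 1.05 relative to the middle of the libraries. Only values near the lowest step of a gene entered, which holds this range near 1 by construction, so differences in depth were not settled. The labels do not say that the libraries came from separate cultures, so p-values measure the spread between these libraries, which may be technical. Of 10 genes listed for spermatogonial stem cells only Id4 and Uchl1 reached 0.5 RPKM in C18-4 cells (sum over the list 78.8 to 122 RPKM in shNC and 124 to 144 RPKM in shM5). Uchl1 was the main contributor, and Kit was at 0 in all libraries. TM4 cells held none of the 10 at that level (list sum at most 0.25). Of 8 Sertoli markers with a value, TM4 cells expressed Sox9 and Gata4 (sum 7.17 to 14.6 RPKM in shNC and 6.48 to 7.15 RPKM in shM5), while C18-4 cells expressed Wt1, Gata4, Rhox5 and Clu (73.1 to 75.2 RPKM and 79.8 to 87.9 RPKM). Wt1 was the main contributor to the C18-4 sums of the Sertoli list. These lists thus matched the names of the lines only in part, with the higher Sertoli sums in C18-4 cells, and the identity of the lines was not tested. The 6 Leydig, 4 macrophage and 4 endothelial markers summed, for each list on its own, to at most 4.28 RPKM in any library. The 4 peritubular myoid markers summed to 25.9 to 32.0 RPKM in C18-4 shNC, 44.0 to 69.8 RPKM in C18-4 shM5, 64.8 to 143 RPKM in TM4 shNC and 145 to 198 RPKM in TM4 shM5, with Acta2 as the main contributor. That list thus moved with the groups and with TM4 shNC replicate 3, and its part in the results below was not tested.

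Over all 12 libraries the 3 synthesis genes of serine stood between the 90.2 and the 98.1 percentile of the genes tested. In TM4 cells all 3 had lower values in every shM5 library than in shNC replicates 1 and 2, while shNC replicate 3 lay close to shM5. Phgdh (Entrez gene 236539), the dehydrogenase that commits 3-phosphoglycerate to serine, had 342, 335 and 201 RPKM in the TM4 shNC libraries in order of replicate number and 193, 186 and 215 in the TM4 shM5 libraries. The first and second shNC libraries were the high ones, and the third fell within the shM5 range. In C18-4 cells Phgdh had 176, 168 and 195 in shNC and 151, 154 and 190.2 in shM5, with overlapping groups and the highest value of each group in replicate 3. Psat1 (107272), the phosphoserine aminotransferase of the next step, was the most abundant of the 10 genes in every group. It had 508, 519 and 389 in TM4 shNC and 386, 369.9 and 398 in TM4 shM5, and again shNC replicate 3 lay within the shM5 range. In C18-4 cells Psat1 had 221, 216 and 256 in shNC and 213, 208 and 234 in shM5, which overlapped. Psph (100678), the phosphatase that releases free serine, showed the widest gap of the 3 in TM4 cells. Its values were 147, 151 and 46.6 in TM4 shNC and 39.9, 41.2 and 43.8 in TM4 shM5, so that replicate 3 was just above the shM5 libraries and far below its own group. In C18-4 cells Psph had 75.9, 70.3 and 97.7 in shNC and 68.0, 65.8 and 88.1 in shM5, and replicate 3 was the highest in both groups.

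The cytosolic and the mitochondrial serine hydroxymethyltransferase differed in how much they varied. Shmt1 (20425) had 38.8, 37.6 and 28.9 RPKM in TM4 shNC and 31.4, 31.9 and 31.6 in TM4 shM5, where shNC replicate 3 was the lowest library of the line. In C18-4 cells it had 29.6, 28.1 and 29.1 in shNC and 23.9, 24.9 and 27.5 in shM5. Shmt1 was the only member whose C18-4 groups did not overlap, with all shM5 libraries below all shNC libraries, against 18.9% of all genes tested in that line. Shmt2 (108037) had 339, 323 and 169.9 in TM4 shNC and 168, 169 and 168 in TM4 shM5, and 144, 145 and 211 in C18-4 shNC and 138, 132 and 183 in C18-4 shM5. Its high libraries were TM4 shNC replicates 1 and 2 and, in C18-4 cells, replicate 3 of both groups.

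The mitochondrial folate enzymes showed the same libraries as high, to unequal degrees. Mthfd2 (17768), a dehydrogenase and cyclohydrolase of folate-bound one-carbon units that is abundant in embryonic and dividing cells, had 224, 221 and 85.3 RPKM in TM4 shNC and 82.8, 81.0 and 79.4 in TM4 shM5. In C18-4 cells it had 91.7, 89.3 and 127 in shNC and 106, 101 and 149 in shM5, and each shM5 library was above the shNC library of its number. Mthfd1l (270685), which releases formate from mitochondria, varied least of the 3. It had 35.9, 36.6 and 31.7 in TM4 shNC and 27.4, 27.8 and 29.8 in TM4 shM5, and 24.1, 25.4 and 26.8 in C18-4 shNC and 25.6, 26.3 and 27.6 in C18-4 shM5. Aldh1l2 (216188), which oxidises formyl folate to carbon dioxide with gain of NADPH, had 94.0, 97.6 and 29.8 in TM4 shNC and 29.0, 29.7 and 26.7 in TM4 shM5. The first and second TM4 shNC libraries were far above all other libraries of either line. In C18-4 cells Aldh1l2 had 14.3, 15.2 and 33.6 in shNC and 11.9, 12.7 and 21.7 in shM5, each shM5 library below the shNC library of its number.

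The proline enzymes followed. Aldh18a1 (56454), which turns glutamate into the precursor of proline and ornithine, had 194, 192 and 63.0 RPKM in TM4 shNC and 61.4, 61.9 and 60.2 in TM4 shM5, and 49.6, 52.6 and 93.4 in C18-4 shNC and 51.0, 52.0 and 84.3 in C18-4 shM5. The C18-4 groups were nearly alike at each replicate number, with the third library of each high. Pycr1 (209027), which closes the last step to proline, was the least abundant member in TM4 cells. It had 32.7, 31.0 and 8.78 in TM4 shNC and 8.97, 10.8 and 7.59 in TM4 shM5, with shNC replicate 3 within the shM5 range. In C18-4 cells Pycr1 had 18.7, 18.6 and 35.5 in shNC and 13.6, 14.7 and 25.6 in shM5, and each shM5 library was below the shNC library of its number.

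**Figure D1:**
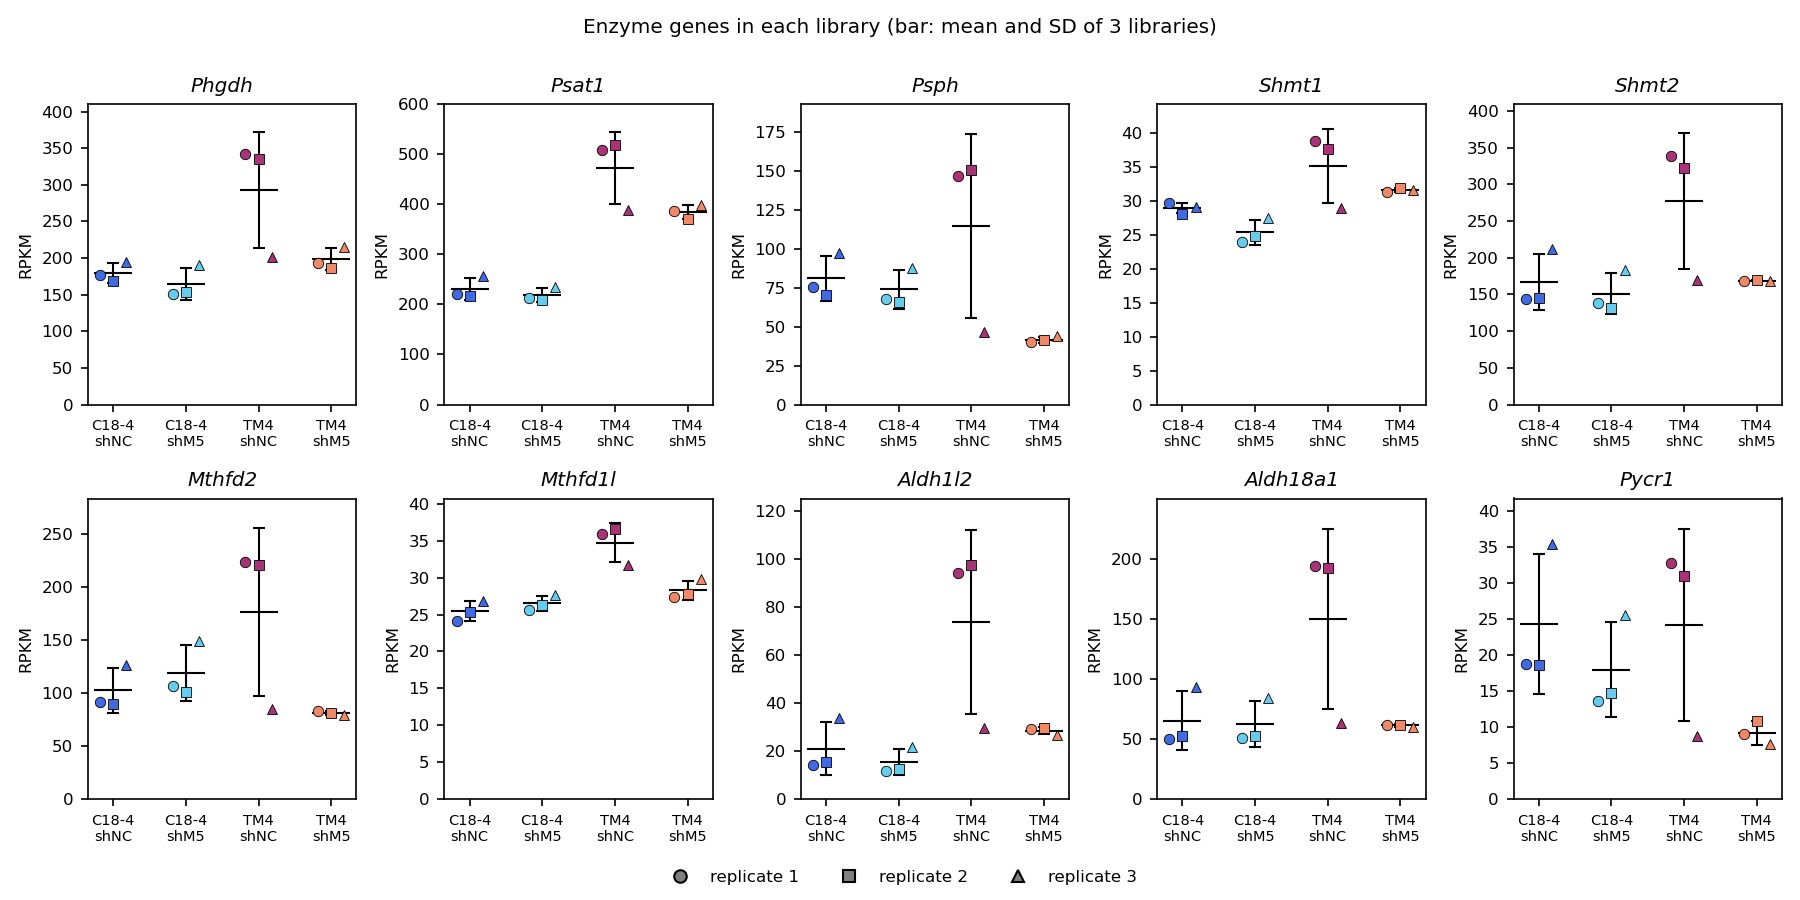
Each panel plots the RPKM of 1 gene on a linear axis from 0 for the 4 groups, with 1 point per library, a marker shape per replicate number, and a bar for the mean and SD of 3 libraries. In most panels the TM4 shNC points of replicates 1 and 2 sit above the other TM4 libraries, and the replicate 3 point of TM4 shNC sits with the shM5 libraries, as for Psph at 46.6 against 39.9 to 43.8.

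The order of the levels was led by the same 4 genes in all 4 groups. Psat1 was followed by Phgdh, Shmt2 and Mthfd2, and Psat1 was apart from Phgdh in every group, whereas the ranges of Phgdh and Shmt2 overlapped in all groups but TM4 shM5. In TM4 shM5 cells the means were 385 ± 14.1 RPKM for Psat1, 198 ± 14.9 for Phgdh, 169 ± 0.674 for Shmt2 and 81.0 ± 1.68 for Mthfd2 (SD, n = 3). There all neighbours in the order had separate ranges apart from Aldh1l2 and Mthfd1l. In TM4 shNC cells, where the libraries spread widely, Psat1 and Phgdh were the only neighbours with separate ranges. Over all 12 libraries Psat1 stood at the 98.1 percentile of the genes tested, Phgdh at 96.8, Shmt2 at 96.5, Mthfd2 at 94.1, Aldh18a1 at 91.1 and Psph at 90.2. The others lay between 60.3 for Pycr1 and 76.3 for Aldh1l2.

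Where the lines were compared within shNC, 7 of the 10 genes were higher in TM4 than in C18-4 cells at an adjusted p below 0.05, against 25.6% of all genes tested. The largest difference was that of Aldh1l2, from 21.1 ± 10.9 RPKM in C18-4 to 73.8 ± 38.1 in TM4 cells (SD, n = 3; log2 difference 1.73, 95% interval 0.75 to 2.71, adjusted p = 0.005). Psat1 was also higher in TM4 cells, going from 231 ± 21.7 to 472 ± 72.2 (log2 difference 1.02, 95% interval 0.78 to 1.26, adjusted p = 7.8e-06). Phgdh, Shmt1, Shmt2, Mthfd1l and Aldh18a1 also passed, with log2 differences between 0.27 for Shmt1 and 1.09 for Aldh18a1. Psph, Mthfd2 and Pycr1 did not pass, at log2 difference 0.33, 95% interval -0.46 to 1.12, adjusted p = 0.437 for Psph, log2 difference 0.68, 95% interval -0.01 to 1.37, adjusted p = 0.0779 for Mthfd2 and log2 difference -0.16, 95% interval -1.16 to 0.85, adjusted p = 0.776 for Pycr1. The median log2 difference was 0.67 over the members and -0.15 over all genes, and the latter became 0.02 after quantile normalization. Without TM4 shNC replicate 3, 9 members passed, all but Pycr1, against 29.5% of all genes. The call on Shmt1 was lost without any 1 of the other 5 shNC libraries, at adjusted p = 0.0707 to 0.174. Those on Shmt2 and Aldh18a1 were lost without replicate 1 or 2 of either group, and 4 to 9 members passed over these leave-outs.

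Between the shM5 groups of the lines only 2 members were called in limma with Benjamini-Hochberg adjustment, where 61.1% of all genes were. Psat1 was higher in TM4 cells (log2 difference 0.82, 95% interval 0.58 to 1.06, adjusted p = 5.18e-05) and so was Shmt1 (log2 difference 0.32, 95% interval 0.08 to 0.55, adjusted p = 0.0222), whose call was lost without any 1 of 5 of the 6 shM5 libraries. The spread in this fit comes from all 4 groups. When TM4 shNC replicate 3 was left out of it, 7 of 10 members were called, with the same differences. That is the level of all genes, of which 70.3% were called, and is not particular to the members. Phgdh, Psat1, Shmt1 and Aldh1l2 were then higher in TM4 cells, and Psph, Mthfd2 and Pycr1 lower, at -0.82, -0.53 and -0.92 on the log2 scale. The Mthfd2 mean was thus higher in TM4 than in C18-4 cells within shNC and lower within shM5. Neither difference passed in the main fit, and both passed without TM4 shNC replicate 3.

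Knockdown was compared with its control within TM4 cells next. None of the 10 genes passed an adjusted p of 0.05 in limma when all 6 libraries were used, and neither did any other gene of the line (called genes 0%), although 2866 of 11016 genes had an unadjusted p below 0.05. All 10 members had a lower mean in shM5, and 7 of them had an unadjusted p below 0.05, against 11.0% of all genes that were lower at that level. Their median log2 fold change was -0.82, where that of all genes was 0.04. Psph had the largest one, from 115 ± 59.1 to 41.6 ± 1.96 RPKM (SD, n = 3; log2 fold change -1.28, 95% interval -2.35 to -0.21, adjusted p = 0.192). Aldh1l2 went from 73.8 ± 38.1 to 28.5 ± 1.57 (-1.19), Pycr1 from 24.1 ± 13.3 to 9.13 ± 1.63 (-1.19) and Aldh18a1 from 149.5 ± 74.9 to 61.2 ± 0.887 (-1.12), each with the same adjusted p as Psph. Groups did not overlap for 6 members, Psph, Shmt2, Mthfd2, Mthfd1l, Aldh1l2 and Aldh18a1, against 11.1% of all genes lower without overlap. In each of them shNC replicate 3 lay just above the shM5 libraries. The gap in RPKM ran from 29.76 against an shM5 maximum of 29.72 for Aldh1l2 to 46.58 against 43.78 for Psph. In bulk RNA, fewer cells of a kind and less RNA per cell cannot be told apart.

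The TM4 result turned on 1 library. Without shNC replicate 3, all 10 members were lower in shM5 at an adjusted p below 0.05, and so were 30.9% of all genes tested. The 5 members that were also at least 1 log2 unit lower stood against 4.63% of all genes. They were Psph (log2 fold change -1.84, 95% interval -1.95 to -1.72, adjusted p = 3.02e-07), Pycr1 (log2 fold change -1.80, 95% interval -2.11 to -1.50, adjusted p = 1.6e-05), Aldh1l2 (log2 fold change -1.75, 95% interval -1.88 to -1.62, adjusted p = 5.8e-07), Aldh18a1 (log2 fold change -1.66, 95% interval -1.74 to -1.57, adjusted p = 2.19e-07) and Mthfd2 (log2 fold change -1.46, 95% interval -1.55 to -1.37, adjusted p = 2.53e-07). Shmt2 followed at -0.97, Phgdh at -0.78, Psat1 at -0.42, Mthfd1l at -0.36 and Shmt1 at -0.27. The library left out is the one that lay with shM5 in these genes, so its removal narrows the control group by construction. With replicate 3 left out of both groups, a choice made after seeing the data, again all 10 were called, where 72.7% of all genes were. Set against the shM5 mean, shNC replicate 3 had 0.915 times the level for Shmt1 and 1.12 times for Psph and Mthfd1l, and the other 7 members lay between.

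Within C18-4 cells, 0 of the 10 genes passed an adjusted p of 0.05 in limma, against 0.586% of all genes. At an unadjusted p below 0.05 there was 1 member, Shmt1, and 1425 of all 11611 genes. Shmt1 had 28.9 ± 0.762 RPKM in shNC and 25.4 ± 1.84 in shM5 (SD, n = 3; log2 fold change -0.19, 95% interval -0.38 to -0.00, adjusted p = 0.397). The labels state no pairing of the C18-4 libraries. Same-numbered libraries were alike in these data, mainly through replicate 3. With the replicate number as a block 3 members passed, against 11.9% of all genes. Pycr1 was lower in shM5 (log2 fold change -0.42, 95% interval -0.56 to -0.29, adjusted p = 0.00617), with ratios of shM5 to shNC of 0.725, 0.79 and 0.721 in order of replicate number. Aldh1l2 was lower as well (log2 fold change -0.39, 95% interval -0.58 to -0.19, adjusted p = 0.0258), at 0.831, 0.831 and 0.645. Mthfd2 was higher (log2 fold change 0.21, 95% interval 0.11 to 0.31, adjusted p = 0.0211), at 1.16, 1.14 and 1.18. The other 7 members had adjusted p-values between 0.0852 for Shmt1 and 0.652 for Aldh18a1 with the block. Without replicate 3 of both groups, a choice made after seeing the data, 5 members passed against 26.2% of all genes. These were the 3 genes above, in the same directions, together with Phgdh (log2 fold change -0.18, 95% interval -0.27 to -0.09, adjusted p = 0.0113) and Shmt1 (log2 fold change -0.24, 95% interval -0.36 to -0.13, adjusted p = 0.00844).

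**Figure D2:**
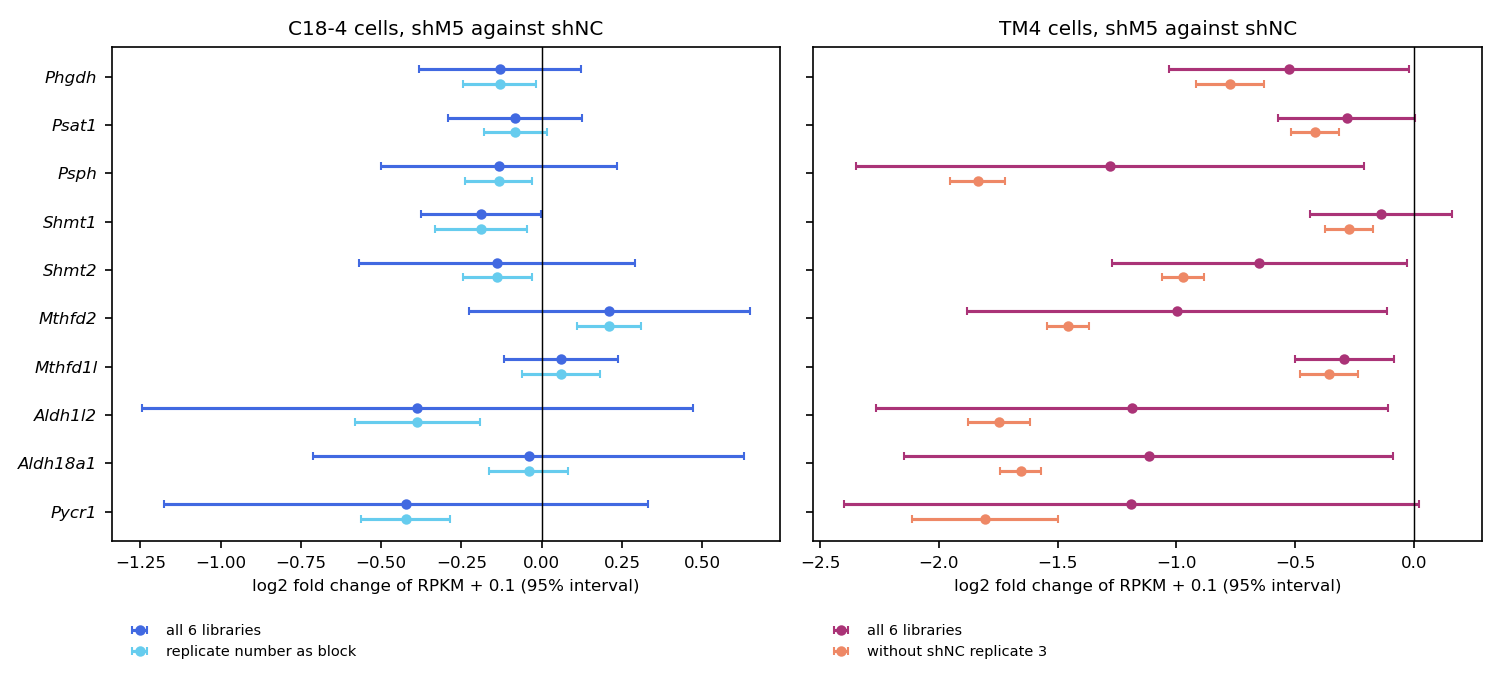
Points are log2 fold changes of RPKM + 0.1, shM5 against shNC, with 95% intervals from limma, for C18-4 cells (left, all 6 libraries without and with the replicate number as a block) and TM4 cells (right, with and without shNC replicate 3), on axes of different width. The block narrows the C18-4 intervals around the same points, while leaving out 1 TM4 library moves the points further from 0, as for Psph from -1.28 to -1.84.

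The difference of the shM5 effect between the lines was tested in 1 fit of all 12 libraries. With all libraries 0 members passed, against 0.102% of all genes. An unadjusted p below 0.05 was reached by 2463 of all 11773 genes and by 3 members. These were Mthfd1l (log2 difference -0.35, 95% interval -0.60 to -0.10, adjusted p = 0.188), Mthfd2 (log2 difference -1.21, 95% interval -2.18 to -0.23, adjusted p = 0.207) and Psph (log2 difference -1.15, 95% interval -2.26 to -0.03, adjusted p = 0.233). Without TM4 shNC replicate 3, 9 members passed, each more negative in TM4 cells, against 38.0% of all genes. Mthfd2 showed log2 difference -1.67, 95% interval -2.18 to -1.16, adjusted p = 0.000424 and Psph log2 difference -1.70, 95% interval -2.14 to -1.27, adjusted p = 0.000155. Shmt1 was the exception (log2 difference -0.08, 95% interval -0.28 to 0.12, adjusted p = 0.494). The Mthfd2 means lay in opposite order in the lines, 102 ± 20.9 RPKM in shNC and 119 ± 26.2 in shM5 of C18-4 cells and 177 ± 79.3 and 81.0 ± 1.68 in TM4 cells (SD, n = 3), though only with the block or without replicate 3 was the C18-4 difference called.

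**Figure D3:**
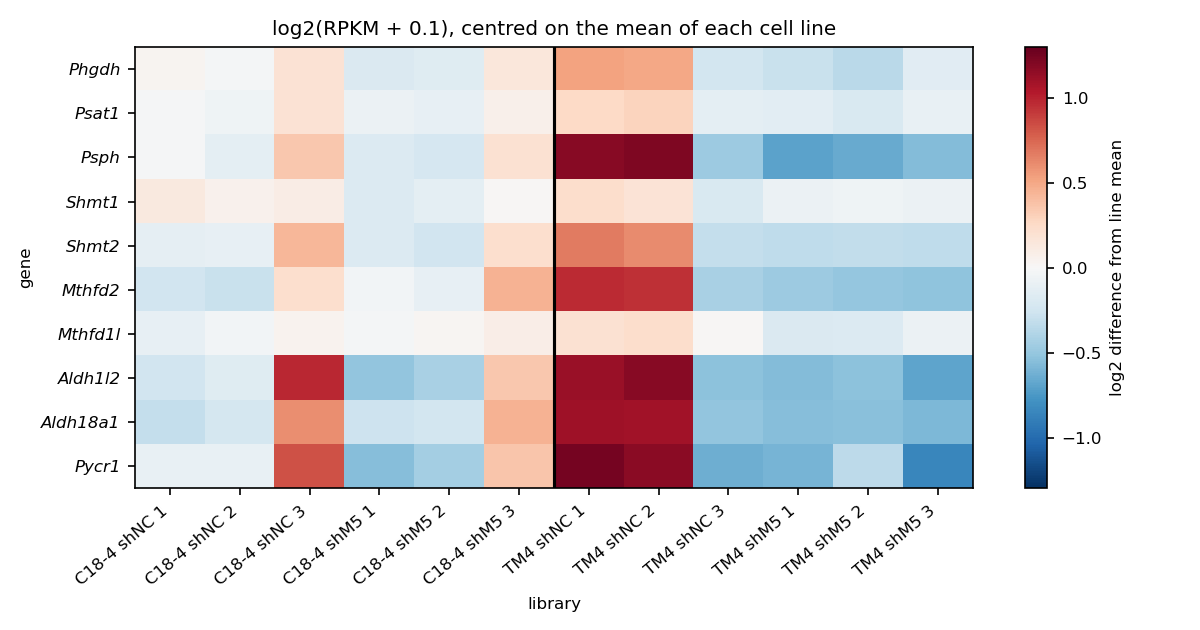
Rows are the 10 genes and columns the 12 libraries, and the colour gives log2(RPKM + 0.1) minus the mean of that gene over the 6 libraries of the same line (red above, blue below, 0 white). TM4 shNC replicates 1 and 2 are red in all rows and TM4 shNC replicate 3 is coloured like the shM5 libraries in most rows, while in C18-4 cells the columns of replicate 3 are the reddest in most rows of both groups.

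The spread within groups was itself ordered by gene. In TM4 shNC cells the mean of replicates 1 and 2 was at least 1.25 times that of replicate 3 for 9 of the 10 members, against 24.7% of all genes. The ratio was 3.62 for Pycr1, 3.22 for Aldh1l2, 3.20 for Psph and 3.06 for Aldh18a1, and it was lowest for Mthfd1l at 1.14. In C18-4 cells the direction of the odd library was the other way, with replicate 3 high. It was at least 1.25 times the mean of replicates 1 and 2 for 6 members in shNC, against 27.2% of all genes. In shM5 the same 6 members passed, Psph, Shmt2, Mthfd2, Aldh1l2, Aldh18a1 and Pycr1, against 21.5% of all genes. Aldh1l2 (2.27 in shNC and 1.77 in shM5), Pycr1 (1.90 and 1.81) and Aldh18a1 (1.83 and 1.64) led, and Shmt1 (1.01 and 1.13) and Mthfd1l (1.08 and 1.06) were near 1. Over the 10 genes the order of these ratios in TM4 shNC had a Spearman coefficient of 0.842 with that in C18-4 shNC and of 0.927 with that in C18-4 shM5. These are descriptions over genes that share libraries and are not independent.

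**Figure D4:**
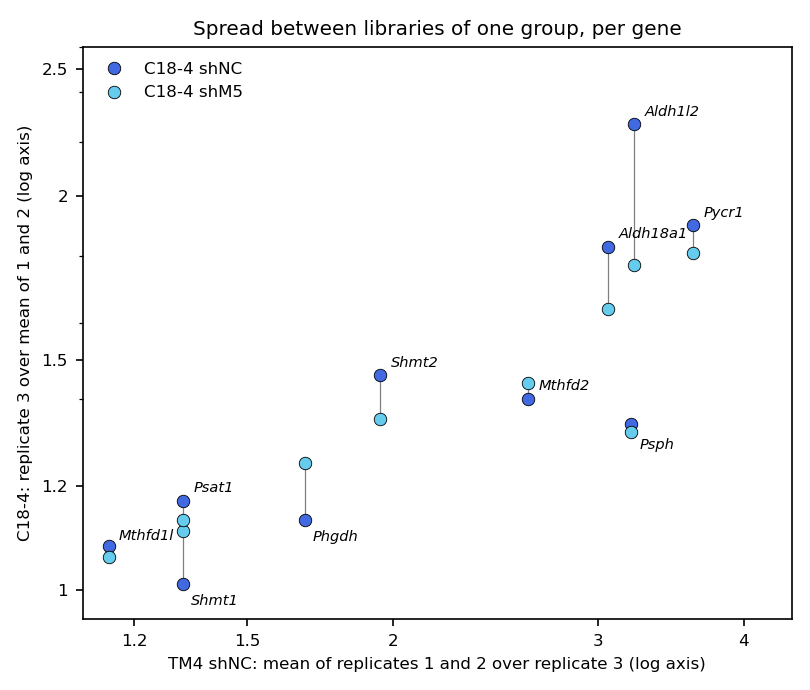
The horizontal log axis gives, for each gene in TM4 shNC cells, the mean RPKM of replicates 1 and 2 divided by replicate 3, and the vertical log axis gives replicate 3 divided by the mean of replicates 1 and 2 in C18-4 shNC and shM5 cells, joined by a line per gene. Aldh1l2, Pycr1 and Aldh18a1 lie at the top right and Mthfd1l and Shmt1 at the bottom left.

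The mitochondrial members were also set against a partner enzyme of the same reaction in each library. Shmt2 exceeded Shmt1 by 8.72, 8.58 and 5.87 times in TM4 shNC and 5.36, 5.30 and 5.33 times in TM4 shM5. Mthfd1, the cytosolic enzyme whose reactions Mthfd2 and Mthfd1l share, had a lower level than Mthfd2 in all libraries, and the ratio of Mthfd2 to Mthfd1 was 8.50, 8.39 and 2.45 in TM4 shNC and 2.34, 2.26 and 2.06 in TM4 shM5. In C18-4 cells it was 2.30, 2.36 and 4.88 in shNC and 2.96, 2.81 and 5.12 in shM5. The libraries high in the members were thus high in these ratios too, which follows in part from the members being the numerators. Mthfd1 itself had 26.4, 26.4 and 34.9 RPKM in TM4 shNC and 35.4, 35.8 and 38.5 in TM4 shM5, so it was low where Mthfd2 was high. Without shNC replicate 3 Mthfd1 was higher in TM4 shM5 than in shNC (log2 fold change 0.47, 95% interval 0.35 to 0.59, adjusted p = 0.000134). Mthfd2l, the close relative of Mthfd2, moved with Mthfd1 (log2 fold change 0.51, 95% interval 0.30 to 0.71, adjusted p = 0.00149). Pycr1 against Pycr3, a related reductase gene, was 0.565, 0.542 and 0.184 in TM4 shNC, 0.199, 0.236 and 0.158 in TM4 shM5, 0.375, 0.404 and 0.835 in C18-4 shNC and 0.292, 0.323 and 0.575 in C18-4 shM5. Aldh1l1, the cytosolic counterpart of Aldh1l2, was at most 0.08 RPKM in all libraries, so that Aldh1l2 was the expressed gene of the pair.

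**Figure D5:**
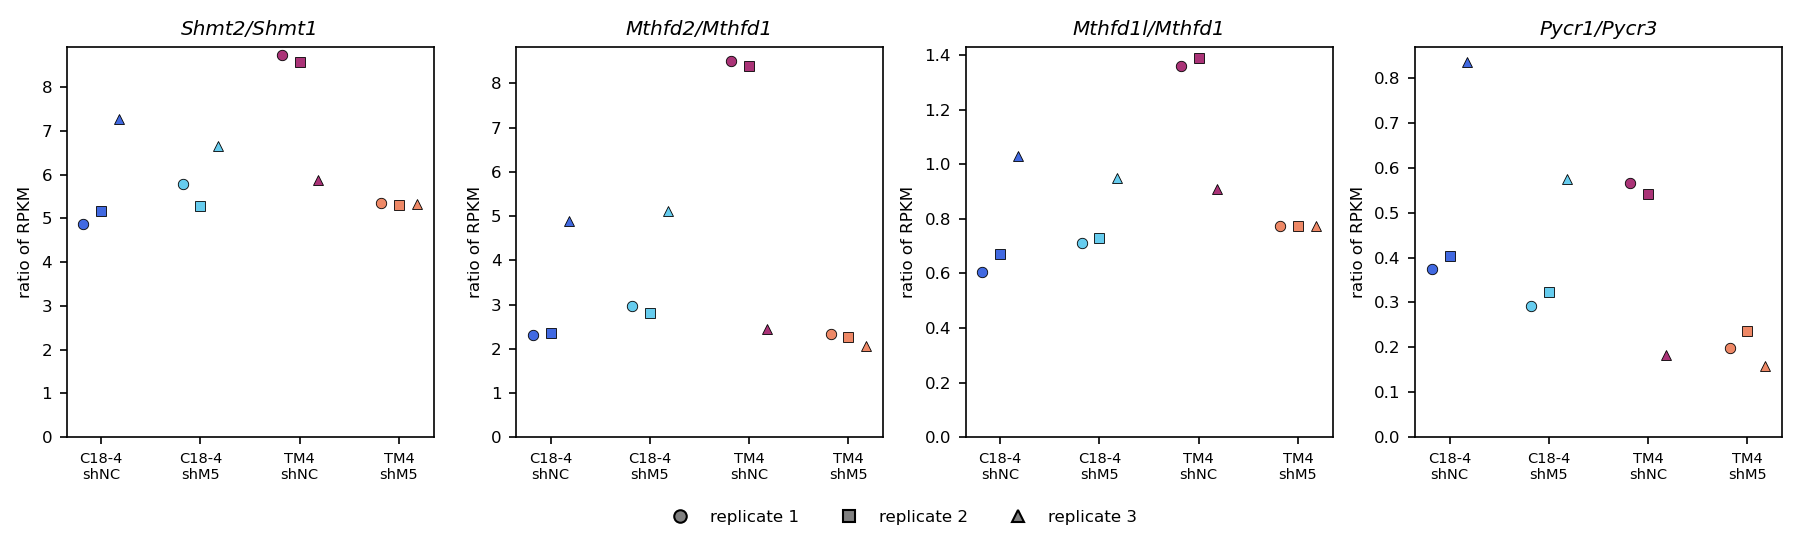
Each panel plots the ratio of RPKM of 2 genes in each of the 12 libraries on a linear axis from 0, with colour for the group and shape for the replicate number. Mthfd2 over Mthfd1 is 8.50 and 8.39 in TM4 shNC replicates 1 and 2 and between 2.06 and 2.45 in the other TM4 libraries, and in C18-4 cells replicate 3 is the highest of both groups in all 4 panels.

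Other enzymes that feed or use the same pathways were called in both directions, and no list of them was tested against all genes. With all libraries, 1 of the 14 tested genes of the cytosolic folate list was called in C18-4 cells, the folate receptor Folr1. It rose from 58.7, 54.9 and 63.9 RPKM in shNC to 88.4, 87.5 and 84.6 in shM5 (log2 fold change 0.55, 95% interval 0.38 to 0.73, adjusted p = 0.041). Among the C18-4 fits without 1 library there was a fit that called no gene, so this call did not hold throughout. None of the 7 mitochondrial folate and glycine cleavage genes, 6 proline and glutamate genes, 6 genes of serine and glycine use or 3 methionine cycle genes tested was called in C18-4 cells, where 0.586% of all genes were. With the block, which called 11.9% of all genes, Mthfd2l (log2 fold change -0.41, 95% interval -0.60 to -0.23, adjusted p = 0.0174) and the serine dehydratase relative Sdsl (log2 fold change -0.71, 95% interval -0.97 to -0.45, adjusted p = 0.00878) were lower in C18-4 shM5, and the methionine adenosyltransferase subunit gene Mat2b was higher (log2 fold change 0.21, 95% interval 0.10 to 0.32, adjusted p = 0.0269). In TM4 cells no gene of these lists was called with all libraries. Without TM4 shNC replicate 3, where 36.5% of all genes rose and 30.9% fell, 3 of 13 cytosolic folate genes rose and 6 fell, 2 of 7 mitochondrial folate genes rose and 3 fell, and 3 of 6 proline and glutamate genes rose and 2 fell. Among them Aldh4a1, which degrades the proline precursor that Aldh18a1 and Pycr1 build on, had 1.06, 0.95 and 2.28 RPKM in TM4 shNC and 2.18, 2.47 and 2.17 in TM4 shM5 and was higher in shM5 (log2 fold change 1.10, 95% interval 0.78 to 1.43, adjusted p = 0.000275). Of 5 genes of serine and glycine use 2 rose and 2 fell, and the largest change was that of Cth, the cystathionine gamma-lyase that makes cysteine, from 159.8, 162 and 19.0 in TM4 shNC to 13.7, 15.0 and 14.7 in TM4 shM5 (log2 fold change -3.47, 95% interval -3.59 to -3.35, adjusted p = 7.25e-08). Of 3 methionine cycle genes 2 rose, Mat2a and Mat2b, and none fell.

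The genes of the ATF4 pathway, a list of 15 with Atf4 itself, moved in the same libraries as the members. Atf4 had 446, 432 and 297 RPKM in TM4 shNC, 267, 275 and 275 in TM4 shM5, 295, 294 and 363 in C18-4 shNC and 283, 279.9 and 349 in C18-4 shM5. Asns, the asparagine synthetase, had 529, 539 and 197 in TM4 shNC and 185, 189 and 177 in TM4 shM5. Chac1, a glutathione-degrading enzyme, had 176, 162 and 17.9 in TM4 shNC and 13.1, 13.5 and 10.9 in TM4 shM5. As for the members, the first and second TM4 shNC libraries were the high ones. All 15 had a lower mean in TM4 shM5, 0 were called with all libraries (median log2 fold change -1.21), and all 15 were called without shNC replicate 3 (median -1.70), where the share of all genes is the 30.9% given above. The largest changes in that fit were those of Atf3 (log2 fold change -3.77, 95% interval -3.95 to -3.59, adjusted p = 1.87e-07) and Chac1 (log2 fold change -3.75, 95% interval -3.96 to -3.53, adjusted p = 2.23e-07). In C18-4 cells replicate 3 was at least 1.25 times the mean of replicates 1 and 2 for 13 of the 15 in each group, against 27.2% of all genes in shNC and 21.5% in shM5. Against shNC, 0 of the 15 were called in C18-4 cells without the block. With the block 5 of the 15 were called, against 11.9% of all genes, of which Atf3 and Gpt2 rose (0.48 and 0.31) and Cebpb, Vldlr and Nupr1 fell (-0.45, -0.53 and -0.23 on the log2 scale). Movement of ATF4 targets was known from earlier results of these data and is no independent support for the members.

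The non-member genes whose pattern over the 12 libraries was most like the mean of the members were Yars and Sars, aminoacyl-tRNA synthetases, Eif4ebp1, a repressor of translation initiation, Eprs, another tRNA synthetase, and Mef2a. The measure was the root mean square difference of centred log2(RPKM + 0.1) values, 0.0446 for Yars, 0.0459 for Sars, 0.0628 for Eif4ebp1, 0.0765 for Eprs and 0.0784 for Mef2a. Among the members themselves it ran from 0.0684 for Shmt2 to 0.57 for Aldh1l2. Yars had 102, 101 and 50.1 RPKM in TM4 shNC and 46.8, 45.6 and 50.04 in TM4 shM5. The genes closest to single members were Yars for Shmt2 (0.0721), Eaf1 for Phgdh (0.0714), Ube2e1 for Psat1 (0.0608), Osgin2 for Mthfd2 (0.0681), Sesn2 for Aldh18a1 (0.122) and Ep300 for Mthfd1l (0.047). For Pycr1 and Aldh1l2 the closest genes, Arl14ep and Tmem150a, were further off at 0.188 and 0.18.

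RefSeq promoter windows on the GRCm38.p6 build, 250 bases before to 50 bases after the start, were given for 9 of the 10 members (not for Aldh1l2) and were searched on both strands for 4 motifs, of which none overlaps another in these windows. TGATGNAA, the composite element bound by C/EBP and ATF factors, matched 1 of the 9 members, Pycr1, and 3.97% of 32851 promoters. TGACGTCA, the cAMP response element, matched 0 of 9 and 1.79% of promoters. CACGTG, an E-box, matched Aldh18a1 and 7.15% of promoters. CCAAT matched 6 members, Phgdh, Psat1, Psph, Shmt1, Mthfd2 and Pycr1, and 37.4% of promoters. Members were counted by gene and promoters by window. Psat1 had windows for start sites 1 and 2, of which only that of start site 2 matched. The windows below belong to the 5 members lowest in TM4 shM5 without shNC replicate 3, apart from Aldh1l2, together with Phgdh as the first step of the pathway. Capitals mark every match to 1 of the 4 motifs, with CCAAT read as ATTGG on the opposite strand. They lie on the minus strand at chr5:129787204-129787503 (Psph), chr11:120643699-120643998 (Pycr1), chr19:40588414-40588713 (Aldh18a1), chr6:83317555-83317854 (Mthfd2) and chr3:98339920-98340219 (Phgdh), and are printed 5′ to 3′ along the gene. In Pycr1 the TGATGCAA match begins at base -103 and in Aldh18a1 the CACGTG match at base -59, counted from the start site. A match is a description of letters in these windows, and no binding was measured.
Psph: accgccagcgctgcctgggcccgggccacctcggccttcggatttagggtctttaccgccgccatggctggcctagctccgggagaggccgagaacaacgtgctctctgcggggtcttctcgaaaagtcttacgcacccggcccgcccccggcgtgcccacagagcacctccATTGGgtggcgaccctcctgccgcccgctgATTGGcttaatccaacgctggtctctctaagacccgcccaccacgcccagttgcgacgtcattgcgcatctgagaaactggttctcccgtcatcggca
Pycr1: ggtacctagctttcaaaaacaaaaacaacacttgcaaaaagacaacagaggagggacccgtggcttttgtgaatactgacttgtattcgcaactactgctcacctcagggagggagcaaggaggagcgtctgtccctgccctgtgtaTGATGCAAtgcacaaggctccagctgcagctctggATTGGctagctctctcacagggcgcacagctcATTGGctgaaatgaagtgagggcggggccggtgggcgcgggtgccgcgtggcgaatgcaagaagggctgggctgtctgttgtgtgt
Aldh18a1: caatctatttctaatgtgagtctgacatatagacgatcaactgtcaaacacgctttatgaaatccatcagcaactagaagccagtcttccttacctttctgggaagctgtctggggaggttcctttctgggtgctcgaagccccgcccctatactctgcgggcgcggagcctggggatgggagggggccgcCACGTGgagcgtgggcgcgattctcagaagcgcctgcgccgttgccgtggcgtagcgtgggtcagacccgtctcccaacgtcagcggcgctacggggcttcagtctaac
Mthfd2: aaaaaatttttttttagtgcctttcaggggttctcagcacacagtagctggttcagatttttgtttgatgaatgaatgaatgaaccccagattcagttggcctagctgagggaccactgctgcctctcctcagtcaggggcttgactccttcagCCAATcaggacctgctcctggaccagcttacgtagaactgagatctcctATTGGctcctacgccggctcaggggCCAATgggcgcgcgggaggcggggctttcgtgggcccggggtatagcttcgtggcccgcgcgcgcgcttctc
Phgdh: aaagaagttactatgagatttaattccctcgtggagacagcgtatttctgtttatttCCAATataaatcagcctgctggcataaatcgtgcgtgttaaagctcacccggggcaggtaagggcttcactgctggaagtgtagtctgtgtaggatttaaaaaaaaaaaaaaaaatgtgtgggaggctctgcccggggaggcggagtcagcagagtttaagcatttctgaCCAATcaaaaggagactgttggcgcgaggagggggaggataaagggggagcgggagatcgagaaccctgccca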

How the data were processed

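RNA-seq libraries of C18-4 and TM4 cells, 3 per group, were grouped by sample title. The authors enriched mRNA with oligo(dT), sequenced it on an Illumina HiSeq and mapped reads with SOAPaligner (v. 2.20). The deposited values are RPKM, scaled by the authors for gene length and library size and written with 2 decimals for 17995 genes. The genome build is not given in the sources used here. RPKM keeps no read numbers, so sampling error is unknown. The table has no column that was left out (0).

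Each line was fitted with limma (version 3.58.1, R 4.3.3) on log2(RPKM + 0.1), which understates changes of low genes, for the 11611 genes of C18-4 and 11016 of TM4 cells whose mean reached 0.5 RPKM, with eBayes trend and Benjamini-Hochberg adjustment over all genes tested at 0.05. Line differences and the interaction came from 1 fit of 12 libraries (11773 genes). The fit within each line was checked on simulated data with known answers and independent noise. Odd libraries, the block and the leave-outs were not part of that check. Same-numbered C18-4 libraries deviated together from their group means (correlations 0.439, 0.409 and 0.631 across genes). Between replicate 1 of 1 group and replicate 2 of the other the correlations were 0.341 and 0.345, so the number mainly matched replicate 3. The labels state no pairing, and this likeness was read from the same data. In TM4 the same-numbered correlations were 0.0729, 0.0489 and 0.127.

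All 10 members were named, and genes of 6 other pathway lists where called or among the largest changes of a list. A few genes of the lists are not reported here. The members, lists and tests were chosen with earlier results of these data known. Alternatives were other pseudocounts (1 and 0.01), no filter, quantile and upper quartile scaling, a replicate block, 1 joint fit and leaving out libraries. Python 3.11.15 was used for ratios, likeness and promoter motifs.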

Additional observations from a re-analysis of the deposited data

How the results depend on the processing

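Over pseudocounts of 1 and 0.01, no filter, quantile normalization, upper quartile scaling and 1 fit of 12 libraries, the number of members called stayed at 0 in C18-4 and in TM4 cells, and at 0 for the interaction, for which the joint fit is the main one. Between lines it was 6 to 8 within shNC (7 in the main fit) and 2 within shM5. With the replicate block it was 3 in C18-4 cells, 0 in TM4 cells and 0 for the interaction, and no other call of a member changed with it. The labels state no pairing by replicate number. No paired analysis was possible because the block lies within each line, for the differences between lines. Leaving out 1 library gave 0 members each time in C18-4 cells, 0 to 10 in TM4 cells and 0 to 9 for the interaction. It gave 4 to 9 for the line difference within shNC and 1 to 2 within shM5. Only leaving out TM4 shNC replicate 3 gave the 10 and both 9. Without replicate 3 of both groups or of all groups, chosen after seeing the data, the counts were 5 in C18-4 cells, 10 in TM4 cells, 9 for the interaction and 10 for the line difference within shNC. Of all genes, 26.2% were called in that C18-4 fit and 72.7% in that TM4 fit. For the counts without replicate 3 of all groups no share of all genes is given, so they are not read as a result about the members. The same holds for the leave-out counts of the line difference within shNC, other than that without TM4 shNC replicate 3.

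Over all genes the counts moved more. In C18-4 cells 68 were called, 1386 with the block, 3029 without replicate 3 of both groups, 143 in 1 fit of 12 libraries, 4 with no filter, and 0 to 237 without 1 library. In TM4 cells 0 were called, 7433 without shNC replicate 3 and 8016 without replicate 3 of both groups. The interaction gave 12, with 57 after quantile normalization, 27 at a pseudocount of 1, 21 with no filter, 18 after upper quartile scaling, 2 with the block and 0 to 4477 without 1 library.

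Of 700 values of single members under an alternative, 616 kept their direction and their side of the threshold. In 14 the direction changed. In C18-4 cells, leaving out 1 library gave log2 fold changes of -0.27 to 0.0062 for Psph, -0.28 to 0.043 for Shmt2, -0.66 to 0.0064 for Aldh1l2 and -0.28 to 0.25 for Aldh18a1, each positive without shNC replicate 3. That of Aldh18a1 was also positive without shM5 replicate 1 or 2 (0.084 and 0.070) and without replicate 3 of both groups (0.013). The interaction of Shmt1 was -0.084 to 0.13 without 1 library, negative without TM4 shNC replicate 3, and -0.028 without replicate 3 of all groups. The line difference of Pycr1 within shNC was -0.48 to 0.46, positive without replicate 3 of C18-4 shNC (0.15) or TM4 shNC, and 0.77 without replicate 3 of all groups. That of Aldh18a1 within shM5 was -0.11 and -0.10 without C18-4 shM5 replicate 1 or 2 and 0.25 at most. Why these libraries differ was not tested. RPKM without read numbers gives no limit of detection, and the lowest member value was 7.59 RPKM.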

Other observations

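Among the genes closest in pattern to the members, the aminoacyl-tRNA synthetases showed the same high libraries in both lines. Sars, which charges the serine tRNA, had 199, 198 and 93.3 RPKM in TM4 shNC and 89.6, 88.6 and 87.9 in TM4 shM5, and 85.6, 84.7 and 123 in C18-4 shNC and 83.5, 86.6 and 114 in C18-4 shM5. Eprs, which charges the glutamate and proline tRNAs, had 203, 212 and 101 in TM4 shNC and 101, 101 and 99.3 in TM4 shM5, and 85.6, 91.4 and 124 in C18-4 shNC and 94.4, 94.1 and 123 in C18-4 shM5. Both were chosen for their likeness to the members, so their pattern is a description.

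Pycr3, a pyrroline-5-carboxylate reductase gene, varied far less than Pycr1. It had 57.9, 57.1 and 47.8 RPKM in TM4 shNC, 44.99, 46.0 and 48.0 in TM4 shM5, 49.9, 46.1 and 42.4 in C18-4 shNC and 46.5, 45.5 and 44.4 in C18-4 shM5, and was thus above Pycr1 in every library. Mat2a, which makes S-adenosylmethionine from methionine, was low in the C18-4 libraries in which the members were high, with 85.2, 85.1 and 44.5 in shNC and 94.3, 92.4 and 50.2 in shM5. Gldc, a subunit of the glycine cleavage system, was at most 0.09 RPKM in all 12 libraries.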
